A study of Mus musculus with 4 samples.

Results

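Genes of the neutrophil, a short-lived phagocyte that is among the first leukocytes to enter an inflamed airway, were followed in bronchial epithelial cells. The cells came from the lungs of control mice and of mice with ovalbumin-induced asthma. The set holds 30 genes for granule proteins, subunits of the NADPH oxidase, surface receptors and intracellular proteins, chosen by gene name, and 29 of them were found by that name among 24368 named genes with a value on the array. Ly6g, a surface antigen used to recognise mouse neutrophils, was not found by that name. The 29 genes were read by 38 probes, and 22 genes had 1 probe. Of the 29 genes, 29 were well above background on all 4 arrays by their brightest probe.

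The labels name 2 genotypes, Pla2g3+/+ (wild type) and Pla2g3-/- (called knockout-labelled here), and Pla2g3 encodes group III secreted phospholipase A2. Each gave a control group and a group challenged with ovalbumin (OVA). Challenged mice had been sensitised with 10 µg OVA and 1.3 mg alum, an adjuvant, on days 0 and 14, and breathed a 1% OVA aerosol for 30 min on days 26, 27 and 28, and their lungs were harvested 3 h later. The treatment of the control mice, the strain, the age and the part of Pla2g3 that is missing are not given in the sources used here. Each group is 1 single-colour array of RNA pooled from 4 samples, 4 arrays in all. A difference between 2 arrays thus cannot be checked against replicates and carries no p-value. Because these are bulk samples, more cells of a type and more RNA per cell cannot be told apart.

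Neutrophils are built in the bone marrow in stages. Promyelocytes transcribe the genes of the primary (azurophil) granules, later precursors transcribe those of the secondary granules, and the mature cell that reaches tissue carries the finished granule proteins while it transcribes genes for receptors, signalling proteins and calprotectin. The NADPH oxidase, assembled at the membrane from several subunits, makes superoxide for killing microbes.

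Levels are log2 processed intensities minus the log2 of the 75th percentile of the same array, and a difference of 1 is 2-fold. The 75th percentile was 1808 to 1986 intensity units, and 79.2% to 81.9% of spots were well above background. The error that the scanner software assigns to a difference ranged from 0.20 to 0.35 for the members, and it covers the reading of spots only, not mice, pools or labelling. Pla2g3, read as a check of the labels, was higher on the knockout-labelled arrays. The level of its brighter probe was −3.05 (control) and −2.83 (challenged) in wild type and 0.14 and 1.07 on the knockout-labelled arrays. Its dimmer probe stood at −5.49 and −7.11 in wild type and at −3.37 and −2.56 on the knockout-labelled arrays. Whether these probes lie in the deleted part is not known. Directions between genotypes therefore follow labels that neither probe bears out. The 12 epithelial marker genes were well above background on all 4 arrays, with a median level of 5.59 to 5.82.

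The knockout-labelled control array stood apart from the others. Its T cell and thymocyte list of 12 genes had a median level of 1.29, against −2.92 to −2.08 on the other 3 arrays, and its summed signal was 7.97 times that of the wild-type control. The B cell list of 7 genes stood at −0.80 on the wild-type control array and at −2.31 to −2.17 on the others. Each comparison below contains at least 1 of those 2 control arrays, except that between the challenged arrays, and the share of other cells in the neutrophil values was not tested.

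Over the whole set, the knockout-labelled challenged array carried the highest level of 19 of the 29 genes, while over the 19202 genes well above background on all 4 arrays it carried the highest level of 22.2%. After challenge in wild type, 5 of the 29 members were at least 2-fold higher and 0 were lower, against 1.66% and 1.54% of 20641 genes with a value. After challenge in knockout-labelled cells, 11 were higher and 1 was lower, against 3.89% and 3.22% of 20381 genes. Between the control arrays, 3 were higher and 1 lower in knockout-labelled cells, against 3.11% and 1.66% of 20523 genes. Between the challenged arrays, 14 were higher and 1 lower in knockout-labelled cells, against 3.83% and 2.21% of 20478 genes. The median difference of the members in these comparisons was 0.05, 0.50, 0.16 and 0.94, and that of all genes was −0.02, −0.05, −0.03 and −0.05. The comparisons share arrays and are given side by side, not as separate evidence. The wild-type count of 5 depends on its control: against the knockout-labelled control array instead, an alternative chosen after seeing the data, 0 members were 2-fold higher and 2 were lower.

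**Figure D1:**
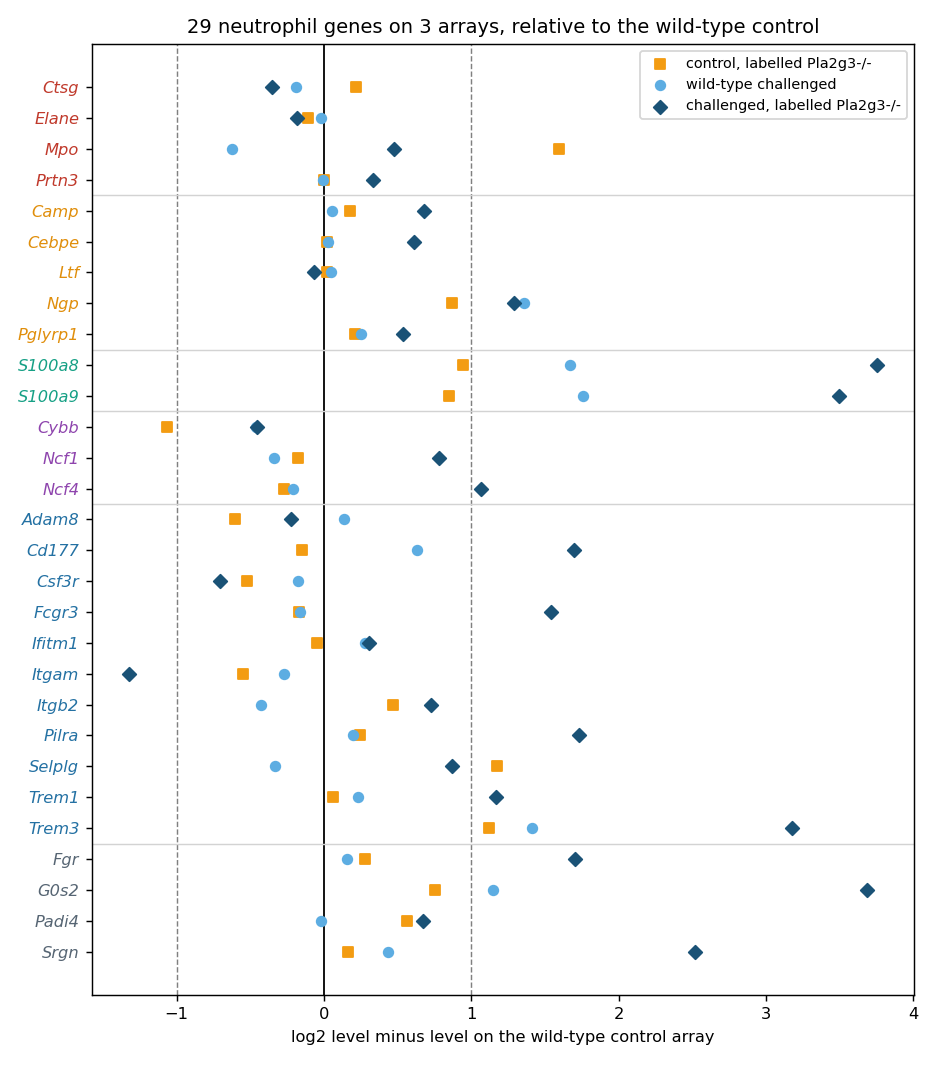
Log2 level of each of the 29 genes minus its level on the wild-type control array (horizontal axis), for the other 3 arrays, 1 point per array, with dashed lines at 2-fold and gene names coloured and grouped by role. The knockout-labelled challenged array lies farthest to the right for the calprotectin genes, G0s2, Srgn and Trem3, while the 4 primary granule genes at the top lie between −0.63 and 1.59.

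The 4 primary granule genes mark the promyelocyte stage: Mpo encodes myeloperoxidase, which makes hypochlorous acid, and Elane, Prtn3 and Ctsg encode the serine proteases neutrophil elastase, proteinase 3 and cathepsin G. Their median challenge difference was −0.11 in wild type, with 0 of 4 at 2-fold, and −0.32 in knockout-labelled cells, with 1 of 4 lower. The 20 mature neutrophil genes, which are the members outside the primary and secondary granule groups, had medians of 0.15 and 1.22 for the same differences, with 4 and 11 of 20 at least 2-fold higher. This group is a remainder, and several of its genes are also expressed by other cells, as given below. Against the wild-type control in place of its own, the knockout-labelled challenged array had a primary granule median of 0.07 and a mature median of 1.11. With the secondary granule genes counted as mature, the median challenge difference in knockout-labelled cells was 0.61 in place of 1.22. Mpo, Prtn3 and Ctsg were dim, with intensities of 17 to 81, 37 to 52 and 62 to 85 units. That limits how far the small primary granule medians can be read as a lack of change.

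The stretches of 250 bases upstream of the annotated start are shown for the 4 primary granule genes and, for contrast, for the 2 calprotectin genes of mature cells. Sequences are from RefSeq on GRCm38.p6, 5′ to 3′ on the strand of the gene. Capitals mark matches, on either strand, to 3 short motifs: GAGGAA, the core of sites bound by PU.1 (a master factor of myeloid cells), TTGCNNAA, of the C/EBP type (factors of granulocyte differentiation), and TGTGGT, of the RUNX type. None of these matches is evidence of a bound site.
Mpo, chr11:87793534-87793783, plus strand: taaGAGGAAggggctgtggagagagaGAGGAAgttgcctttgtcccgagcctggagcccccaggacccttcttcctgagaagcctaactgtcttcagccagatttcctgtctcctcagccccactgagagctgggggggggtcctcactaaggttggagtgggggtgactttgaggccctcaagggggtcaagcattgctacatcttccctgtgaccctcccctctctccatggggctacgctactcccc
Elane, chr10:79886062-79886311, plus strand: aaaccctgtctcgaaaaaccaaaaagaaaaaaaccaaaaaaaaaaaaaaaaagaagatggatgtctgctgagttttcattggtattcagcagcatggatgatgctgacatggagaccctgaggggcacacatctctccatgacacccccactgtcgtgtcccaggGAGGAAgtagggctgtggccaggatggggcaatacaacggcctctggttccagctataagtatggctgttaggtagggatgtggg
Prtn3, chr10:79879417-79879666, plus strand: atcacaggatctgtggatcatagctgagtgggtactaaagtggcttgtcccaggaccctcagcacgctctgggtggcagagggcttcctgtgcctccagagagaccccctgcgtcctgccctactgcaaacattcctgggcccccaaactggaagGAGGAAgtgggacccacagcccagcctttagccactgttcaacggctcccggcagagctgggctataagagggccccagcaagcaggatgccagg
Ctsg, chr14:56102575-56102824, minus strand: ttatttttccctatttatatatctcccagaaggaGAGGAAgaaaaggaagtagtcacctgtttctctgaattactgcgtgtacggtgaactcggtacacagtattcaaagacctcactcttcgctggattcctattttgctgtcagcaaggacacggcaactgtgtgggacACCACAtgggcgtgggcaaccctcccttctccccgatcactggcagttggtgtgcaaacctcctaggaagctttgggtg
S100a8, chr3:90668821-90669070, plus strand: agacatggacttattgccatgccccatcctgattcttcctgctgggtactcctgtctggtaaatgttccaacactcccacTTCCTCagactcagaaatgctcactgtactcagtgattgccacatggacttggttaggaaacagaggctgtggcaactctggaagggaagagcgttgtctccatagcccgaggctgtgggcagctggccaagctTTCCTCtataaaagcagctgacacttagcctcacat
S100a9, chr3:90695722-90695971, minus strand: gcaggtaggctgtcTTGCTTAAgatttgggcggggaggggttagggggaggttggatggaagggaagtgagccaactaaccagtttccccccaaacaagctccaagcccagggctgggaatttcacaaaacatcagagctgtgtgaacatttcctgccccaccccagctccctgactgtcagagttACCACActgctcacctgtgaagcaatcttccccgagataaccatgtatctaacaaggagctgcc

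Each of the 4 primary granule windows held GAGGAA, while 23.3% of 32851 RefSeq windows of the same length did. In Elane and Prtn3, which are neighbours on chromosome 10 with 0 protein-coding genes between them, the match began 85 and 95 bases before the start. The motif was also in the S100a8 window and not in that of S100a9, its neighbour on chromosome 3. Windows were in the table for 24 of the 29 members, and 13 of these held GAGGAA (54.2%). The C/EBP-type motif was in 6 of 24 (25.0%) against 9.56% of all windows, and in 0 of the 4 primary granule windows. The RUNX-type motif was in 4 of 24 (16.7%) against 14.0%. The motifs were chosen for their known place in myeloid genes, so these shares are a description.

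Mpo was the primary granule gene with the widest range. Its level was −6.10 on the wild-type control array, −4.51 on the knockout-labelled control array, −6.73 on the wild-type challenged array and −5.63 on the knockout-labelled challenged array. It was highest on the control array that also carried the T cell and thymocyte genes. The challenge differences were −0.63 (scanner error 0.27) in wild type and −1.12 (0.22) in knockout-labelled cells, and the genotype differences were 1.59 (0.23) without challenge and 1.1 (0.26) with it. Against the wild-type control array in place of its own control, the knockout-labelled challenged array was higher in Mpo by 0.47, so the sign of that challenge difference depends on which control is used. With normexp the Mpo challenge differences were −0.12 and −0.61, and with the mean of probes −0.39 and −0.87, so the 2-fold lower call was lost under both. The brighter Mpo probe lies at chr11:87617840-87617899 (mm9), and the second, at chr11:87615121-87615180, was not well above background on any array.

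Elane stood at −0.82, −0.93, −0.84 and −1.0 on the wild-type control, labelled control, wild-type challenged and labelled challenged arrays, the order used for all 4-value sentences below. All 4 of its differences were within −0.16 and −0.02, less than the scanner error of 0.20. Prtn3 stood at −5.59, −5.59, −5.60 and −5.26, with a challenge difference of 0.33 (0.23) in knockout-labelled cells. Ctsg stood at −4.65, −4.43, −4.84 and −5.00, and its challenge difference in knockout-labelled cells was −0.57 (0.22). Ctsg is also a mast cell gene, and the list of 10 mast cell and basophil genes had a median of −0.11 for the same difference, with 0 of 9 measured genes at 2-fold.

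Other genes of neutrophil precursors went both ways. In a list of 14 further precursor genes, 13 had a value, and the median challenge difference was −0.19 in wild type and −0.27 in knockout-labelled cells, with 0 and 1 at least 2-fold higher and 0 and 2 lower. The lower genes were Gfi1, a repressor needed in granulocyte and lymphocyte development, at −3.05, and Prss57, a serine protease of primary granules, at −2.73 or lower, because its signal on the knockout-labelled challenged array was near background. The higher gene was Igsf6, an immunoglobulin superfamily member, at 1.75, and it was 1.61 higher between the challenged arrays. Gfi1 and Prss57 were highest on the knockout-labelled control array, where Gfi1 was 3.66 above wild type and Prss57 at least 2.78 above. The precursor list had a median level of 0.36 to 0.59 on the 4 arrays, against −5.22 to −4.47 for the primary granule members. Its median differences thus rest in part on bright genes, and which cells express those was not tested. In a list of 26 further mature neutrophil genes, challenge in wild type left 9 of 25 measured genes higher by 2-fold or more and 1 lower (median 0.71), and 17 of 26 were higher and 0 lower in knockout-labelled cells (median 1.92). Between the challenged arrays 17 of 26 were higher in knockout-labelled cells (median 1.47).

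Among those further mature genes, Lcn2, an iron-trapping antimicrobial protein that epithelium also makes, had challenge differences of 3.89 in wild type and 3.36 in knockout-labelled cells. Clec4d, a myeloid lectin receptor, had 1.38 and 4.13. Lrg1, a secreted glycoprotein stored in granules, had 2.16 and 4.0, and Mmp8, the neutrophil collagenase, had 1.58 and 3.78. Between the challenged arrays, Clec4d was 2.87 higher and Lrg1 2.23 higher in knockout-labelled cells.

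**Figure D2:**
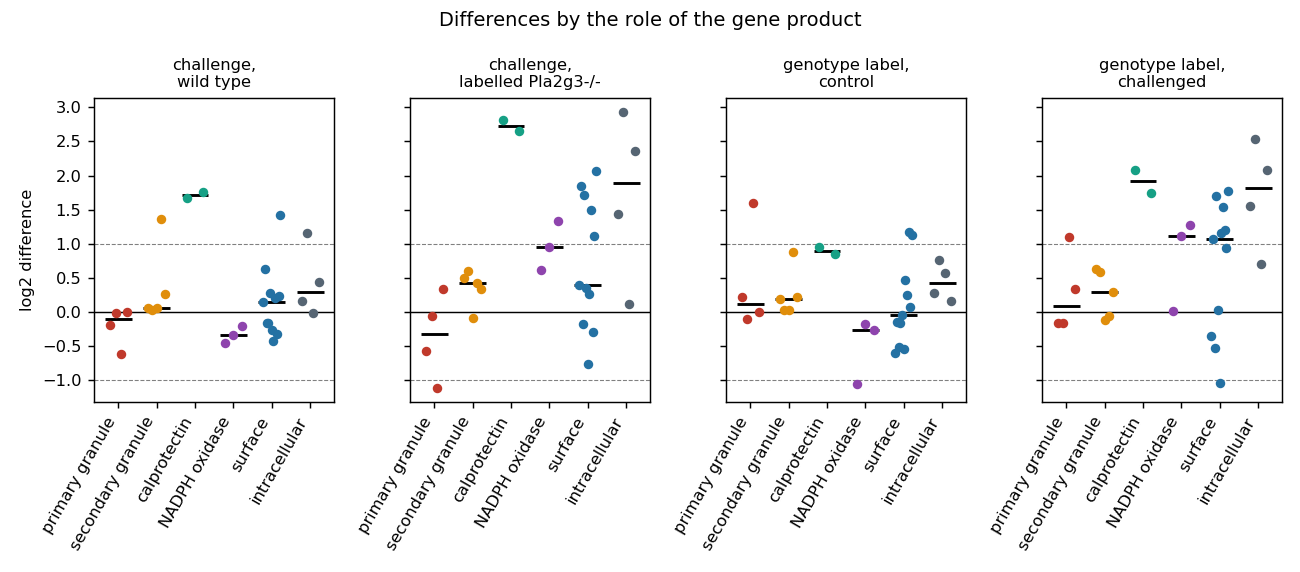
Log2 difference of each member (points) and the median of its role group (bars) in 4 comparisons, each a difference between 2 arrays, with dashed lines at 2-fold. The primary granule group stays at a median of −0.32 to 0.11, while calprotectin has medians of 1.71 and 2.73 after challenge and 1.92 between the challenged arrays.

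The secondary granule group, with 5 members, had median challenge differences of 0.05 in wild type and 0.42 in knockout-labelled cells, with 1 of 5 and 0 of 5 at least 2-fold higher. That gene was Ngp, a cystatin-related protein of neutrophil granules, with levels of −5.15, −4.27, −3.79 and −3.85. Both challenged arrays were thus close to each other and above both controls. Ngp was higher by 1.36 (scanner error 0.22) in wild type and by 0.42 (0.21) in knockout-labelled cells. It was the only member of the 29 that passed 2-fold after challenge in wild type and not in knockout-labelled cells, and that difference between genotypes was not tested. With normexp background correction its wild-type difference was 0.79, and with the control arrays exchanged it was 0.49 in wild type and 1.29 in knockout-labelled cells.

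Camp, which encodes the antimicrobial peptide precursor cathelicidin, stood at −2.37, −2.19, −2.31 and −1.69. Its challenge differences were 0.05 and 0.50, the second above the scanner error of 0.20. Cebpe, a transcription factor needed for secondary granule genes, had levels of −5.20, −5.18, −5.17 and −4.59 and was 0.59 (0.23) higher after challenge in knockout-labelled cells. Ltf, which encodes the iron-binding protein lactoferrin and is also made by secretory epithelium, was at 7.47, 7.49, 7.52 and 7.40, a range below the scanner error. Pglyrp1, a peptidoglycan-binding protein, was at 5.11, 5.32, 5.37 and 5.65, with challenge differences of 0.25 and 0.33 (error 0.20 for each). No spot on any array was saturated (0 on each).

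Both calprotectin genes were at least 2-fold higher after challenge in each genotype. S100a8 and S100a9, whose products pair to form this calcium- and metal-binding protein, are abundant in mature neutrophils and can also be made by monocytes and inflamed epithelium. S100a8 (probe at chr3:90473778-90473837, mm9) stood at 0.22, 1.16, 1.88 and 3.97. S100a9 (chr3:90496573-90496632) stood at 1.75, 2.60, 3.51 and 5.25. Both genes were lowest on the wild-type control, and both challenged arrays lay above both controls. After challenge S100a8 was higher by 1.67 in wild type (3.18-fold) and by 2.81 in knockout-labelled cells (7.0-fold), and S100a9 by 1.76 (3.38-fold) and 2.65 (6.28-fold), each with a scanner error of 0.20. Between the challenged arrays S100a8 was 2.09 and S100a9 1.74 higher in knockout-labelled cells, and between the control arrays 0.95 and 0.85. With the knockout-labelled control array in place of the wild-type one, the wild-type challenge differences were 0.72 and 0.91, below 2-fold.

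The 3 oxidase members had challenge differences of opposite sign in the 2 genotypes, which was not tested. In wild type 3 of 3 were lower, with differences of −0.46 to −0.21, and in knockout-labelled cells 3 of 3 were higher, with 0.61 to 1.33. Ncf4, the p40phox subunit, stood at 0.77, 0.50, 0.56 and 1.84, and only the knockout-labelled challenged array lay apart. Its challenge differences were −0.21 (scanner error 0.20) and 1.33 (0.20). Ncf1, the p47phox organiser subunit, stood at −3.04, −3.21, −3.38 and −2.26, with differences of −0.34 (0.21) and 0.96 (0.21). Cybb, the membrane-bound catalytic subunit gp91phox, stood at −3.49, −4.56, −3.95 and −3.95. It was lowest on the knockout-labelled control array, 1.07 below the wild-type control, and the challenged arrays were level with each other (0.01 apart). With the control arrays exchanged, the Cybb challenge differences changed sign, to 0.60 in wild type and −0.46 in knockout-labelled cells, and the wild-type difference of Ncf4 was 0.06. Cyba, the p22phox subunit, is no member and was named after its values were seen; its challenge differences were 0.61 and 0.77, of the same sign.

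Of the 11 surface genes found, 1 was at least 2-fold higher after challenge in wild type and 5 in knockout-labelled cells, with 0 lower in either. Trem3, an activating receptor of myeloid cells, was the 1 in wild type, with levels of −7.00, −5.88, −5.59 and −3.82. It was higher by 1.41 (error 0.34) in wild type and 2.06 (0.24) in knockout-labelled cells, but it is dim, and with normexp background correction these were 0.45 and 0.90. Its neighbour on chromosome 17, Trem1, which amplifies inflammatory signals, stood at −2.04, −1.98, −1.81 and −0.88, with challenge differences of 0.23 and 1.1. The first 3 arrays were close for Trem1, and the fourth stood above them.

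Fcgr3, a low-affinity receptor for IgG found on neutrophils, macrophages and natural killer cells, stood at −2.98, −3.16, −3.15 and −1.44. Its challenge difference was −0.16 in wild type and 1.71 in knockout-labelled cells (error 0.20 for each). Cd177, a surface protein largely restricted to neutrophils, stood at −1.66, −1.81, −1.03 and 0.04, with differences of 0.63 and 1.85. For Cd177 both challenged arrays were above both controls. Pilra, an inhibitory receptor of myeloid cells, stood at −2.26, −2.02, −2.07 and −0.53, with differences of 0.20 and 1.49, and its 3 probes gave 1.29 to 1.49 in knockout-labelled cells.

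By their brightest probes, the integrin genes did not behave as a pair. Itgam and Itgb2 encode the chains of the Mac-1 integrin, which binds ICAM-1 and complement fragments. Itgb2 stood at −1.90, −1.43, −2.33 and −1.17, and was 1.15 higher on the knockout-labelled challenged array than on the wild-type challenged array. The brightest Itgam probe stood at 3.09, 2.54, 2.82 and 1.77, and gave −1.05 for that same comparison, the single 2-fold lower member there. Its other 2 probes were far dimmer, at −3.99 and −4.11 on the wild-type control array, and gave 0.45 and 0.03. The 3 Itgam probes thus differ in sign and size, and the call of a lower Itgam was lost when probes were averaged (−0.19). The brightest probe lies at chr7:135261755-135261814 and the others at chr7:135260275-135260334 and chr7:135212140-135212199 (mm9).

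Selplg, the P-selectin ligand PSGL-1 that lets leukocytes roll on vessel walls, followed the genotype label rather than challenge. It stood at −1.44, −0.26, −1.77 and −0.57, and both knockout-labelled arrays were above both wild-type arrays. The genotype differences were 1.17 (2.26-fold) without challenge and 1.20 (2.30-fold) with it, and the challenge differences were −0.33 and −0.31. A second probe gave genotype differences of 0.67 and 0.77. T cells also express Selplg, and the T cell and thymocyte list had genotype medians of 3.88 and 1.04 in the same 2 comparisons. Its challenge medians were −0.58 in wild type and −3.49 in knockout-labelled cells, against −0.33 and −0.31 for Selplg. The part of T cells in the Selplg difference was not tested.

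The other 3 surface genes did not reach 2-fold in any comparison. Adam8, a membrane metalloprotease, stood at 4.71, 4.10, 4.85 and 4.49, with challenge differences of 0.14 and 0.39. Ifitm1, an interferon-induced membrane protein found in many cell types, had challenge differences of 0.28 and 0.35. Csf3r, the receptor for the granulocyte growth factor G-CSF, stood at 5.74, 5.22, 5.57 and 5.03, with challenge differences of −0.17 and −0.19. The file places the Csf3r probe on chromosome 19 (chr19:60157892-60157951, mm9), while RefSeq has the gene on chromosome 4, and the brighter Ifitm1 probe is placed on chromosome 8 while the gene is on chromosome 7. Of the 38 member probes, 31 were placed on the chromosome of their gene, 2 on another and 5 were unmapped. The values of those 2 genes may therefore belong to other transcripts, and without them the 2-fold counts were the same in each of the 4 comparisons.

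**Figure D3:**
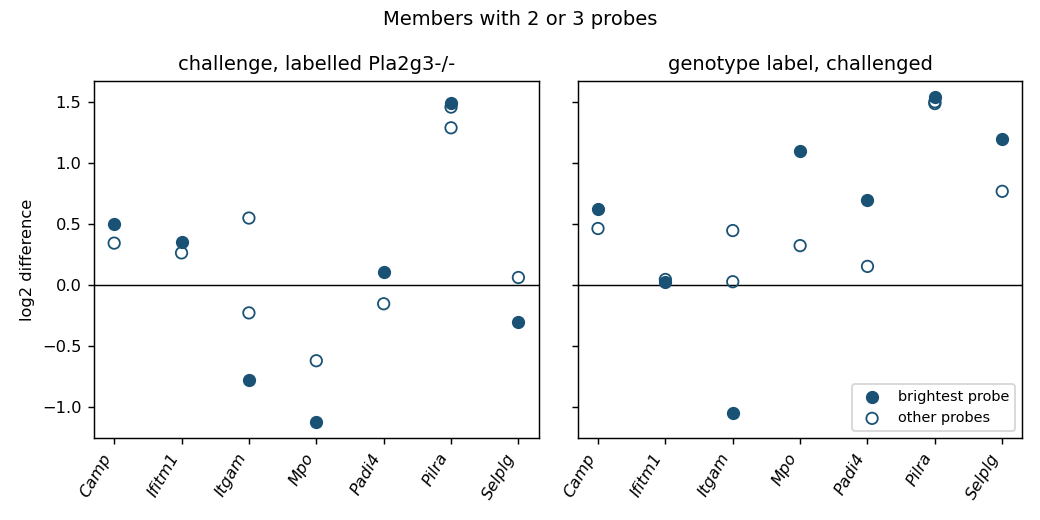
Log2 differences by probe for the 7 members with more than 1 probe, after challenge in knockout-labelled cells (left) and between the challenged arrays (right), with the brightest probe filled and other probes open. The Pilra probes lie together at 1.29 to 1.54, the Itgam probes spread from −1.05 to 0.55, and the open Mpo probe was not well above background on any array.

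Of the 4 intracellular genes, 1 and 3 were at least 2-fold higher after challenge in wild type and in knockout-labelled cells. G0s2, an inhibitor of triglyceride lipase that is abundant in neutrophils, stood at −5.28, −4.53, −4.13 and −1.59. It was higher by 1.15 (2.22-fold, error 0.22) in wild type and by 2.94 (7.66-fold, error 0.21) in knockout-labelled cells, the largest challenge difference of the set, and with normexp these were 0.64 and 2.15. Srgn, serglycin, the proteoglycan core that packs granule proteins in many blood cells, stood at 0.57, 0.73, 1.00 and 3.09. Its challenge differences were 0.43 and 2.36, so most of its range came from the knockout-labelled challenged array. Fgr, a Src-family kinase of myeloid cells, stood at −3.85, −3.57, −3.70 and −2.15, with 0.15 and 1.43. Padi4, the enzyme that citrullinates histones when neutrophils release chromatin traps, stood at −2.52, −1.95, −2.54 and −1.84. Its challenge differences were −0.02 and 0.11, and its genotype differences were 0.56 and 0.69, while its dimmer probe gave 0.20 and 0.15.

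**Figure D4:**
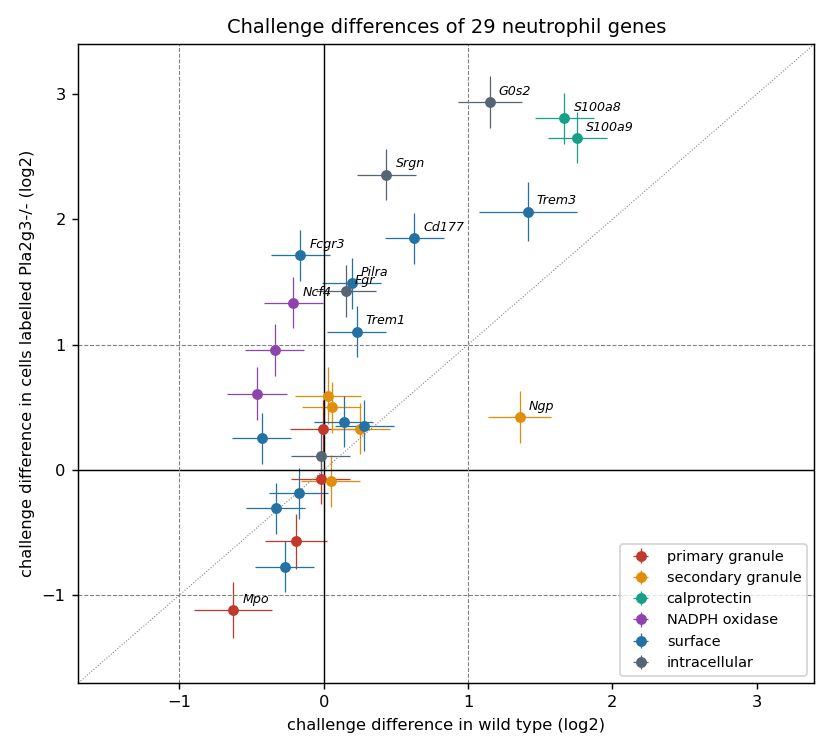
Challenge difference in wild type (horizontal) against that in knockout-labelled cells (vertical) for the 29 members, on log2 scales, with scanner errors as bars, dashed lines at 2-fold and the dotted line of equal differences. Of the 29, 22 lie above the dotted line, with Ngp and Mpo among those below it, and 4 genes (S100a8, S100a9, G0s2 and Trem3) pass 2-fold on both axes.

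The 2 challenge differences come from separate pairs of arrays. The one in knockout-labelled cells was the larger for 22 of the 29 members and for 18 of the 20 mature genes, and over 20040 genes it was the larger for 46.2%. Its excess over the wild-type difference had a median of 0.56 over the members and −0.03 over all genes. The excess was largest for Srgn (1.92), Fcgr3 (1.87) and G0s2 (1.79). The lowest values were those of Ngp (−0.94), Itgam (−0.50), Mpo (−0.49) and Ctsg (−0.38), and those of Ltf (−0.14), Elane (−0.05) and Csf3r (−0.01) were also below 0. Whether these excesses are larger than the spread between pools was not tested, as each group had 1 array.

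An additive fit of genotype label and challenge over the 4 arrays with limma was the only test. How far the 2 challenge differences lie apart gave it 1 residual degree of freedom for each gene. The fit combined that spread with a variance trend over all genes, so its standard errors are not each gene's own. After Benjamini-Hochberg adjustment over 20297 genes it called 0 of the 29 members for challenge and 0 for the genotype label at 0.05, and of all genes it called 0.00493% and 0%. At an unadjusted p under 0.05, 12 of the 29 members stood out for challenge, 9 of them higher, and 12 for the genotype label, again 9 higher, against 15.2% and 11.7% of all genes. The lowest adjusted p among the members was 0.188 for challenge (S100a9, an average of 2.20 with a standard error of 0.24, higher in 2 of 2 genotypes) and 0.129 for the genotype label (Selplg, 1.19 with a standard error of 0.10, higher in 2 of 2 conditions), both by limma. Over the alternative settings these adjusted p-values ranged from 0.123 to 0.406 and from 0.0834 to 0.325.

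Markers of other leukocytes moved with some of these values. The list of 16 macrophage and monocyte genes, of which 15 had a value, had median challenge differences of −0.06 in wild type and 0.48 in knockout-labelled cells, and 0.70 between the challenged arrays, where 15 of 15 were higher and 3 passed 2-fold. Its summed signal was 14.5, 15.1, 11.3 and 20.5 times the 75th percentile on the 4 arrays, highest where the mature neutrophil genes were highest. Marco, a scavenger receptor of alveolar macrophages, was 2.58 higher and Mrc1, the mannose receptor, 1.26 higher on the knockout-labelled challenged array than on the wild-type challenged array. Marco stood at 1.22, −0.15, −0.79 and 1.79, with a challenge difference of −2.01 in wild type. After challenge in knockout-labelled cells, 13 of the 15 genes were higher and 2 lower, and F13a1, also on the list, was at −1.66. Cd163, another macrophage receptor, was not well above background on any array. Fcgr3, Cybb, Itgam, Itgb2, Pilra, Trem1, Trem3, Fgr and Srgn are also expressed by macrophages or monocytes, and the part of these cells in their values was not tested.

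Epx, eosinophil peroxidase, was not well above background on any array, and the 6 eosinophil genes with a value had median challenge differences of −0.40 and −0.13, with 1 gene 2-fold lower in each. Between the challenged arrays their median was 0.17, and Prg2, eosinophil major basic protein, was at least 1.12 higher in knockout-labelled cells. The 9 mast cell and basophil genes had challenge medians of 0.19 and −0.11, and −0.24 between the challenged arrays. Red cell genes, 7 in all, were lower after challenge, with medians of −0.66 and −1.15, and Ahsp, a stabiliser of alpha globin, was at −1.19 and −1.90. The 12 epithelial genes had medians of 0.04 and −0.02 after challenge and 0 of 12 passed 2-fold in any of the 4 comparisons.

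**Figure D5:**
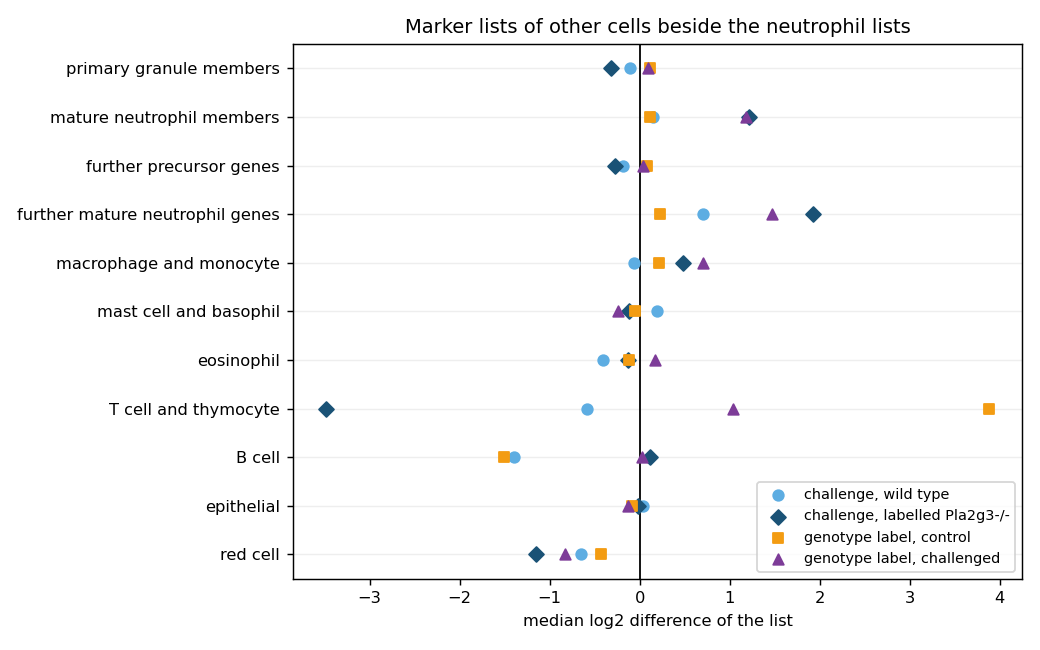
Median log2 difference (horizontal) of the primary granule members, the mature neutrophil members and 9 other gene lists in 4 comparisons, each between 2 arrays. The mature neutrophil members and the further mature genes lie at 1.18 to 1.92 after challenge in knockout-labelled cells and between the challenged arrays, the epithelial list lies near 0, and the T cell and thymocyte list spans −3.49 to 3.88.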

How the data were processed

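Each of the 4 groups had 1 array of RNA pooled from 4 samples, per the series' design text; 200 ng entered a low-input Cy3 labelling reaction, per the labels' protocols. The deposited scanner files hold intensity values with spatial and multiplicative detrending and probes placed on mm9, per the file headers. The program was Agilent Feature Extraction 11.5.1.1, as the submitters' processing notes state. The deposited series matrix holds intensity values equal to the processed signal divided by the 75th percentile of each array (the log2 ratio ranged over at most 1.59e-06), with column medians of 0.0875, 0.0879, 0.0860 and 0.0850.

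The 75th percentile of the processed signal of noncontrol spots was subtracted, as log2, within each array. Spots marked as outliers (128 to 155 per array) were left out, spots of 1 probe averaged, and a gene was represented by its brightest probe. Of 39429 probes, 28330 took a symbol from a RefSeq table (GRCm38.p6; it gave names and neighbours), and 6961 had none. Where only 1 of the 2 arrays compared was well above background the difference is a bound ("at least", "or lower"), and where neither was, there is no value. Members were matched by the file's gene name. The number of arrays limits the precision, and probes of 5 or more spots varied between spots with a median SD of 0.07 log2 units. All arrays share 1 slide, so position on it and group cannot be told apart. The additive fit used limma 3.58.1 in R 4.3.3, with a trend, on genes well above background on at least 2 arrays, with adjustment at 0.05; it was tested on simulated data.

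The members and lists were chosen with earlier results of these data known. Named genes are the members, up to 4 genes of each other list with the largest difference, Pla2g3, and a few list genes (Epx, Cd163, Cyba) named after their values were seen. Alternatives were normexp with an offset of 50, quantile normalization, median scaling, a filter on all 4 arrays, the mean of probes, outlier spots kept, the series matrix values and no variance trend. The exon or UTR in which a probe lies was not analysed here. Other versions were Python 3.11.15 and matplotlib 3.10.9.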

Additional observations from a re-analysis of the deposited data

Results flagged for a closer look

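Cybb was flagged for challenge differences of opposite signs in the 2 genotypes, each larger than its scanner error: −0.46 in wild type and 0.61 in knockout-labelled cells. Cybb was not alone in this: Ncf1 had −0.34 and 0.96, Ncf4 −0.21 and 1.33, and Itgb2 −0.43 and 0.25. The difference between the genotypes was not tested. With the control arrays exchanged the signs of Cybb changed (0.60 and −0.46) and Ncf4 had 0.06 and 1.06. Ncf1 (−0.16 and 0.78) and Itgb2 (−0.90 and 0.72) kept their signs.

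A probe that carries no gene symbol in the files is described there as Ly6g (chr15:74989023-74989082, mm9) and lies outside the members. It stood at 1.32 and 1.16 on the wild-type and labelled control arrays and at 1.73 and 1.64 on the challenged arrays, so it was above its control by 0.41 in wild type and by 0.48 in knockout-labelled cells. Between the challenged arrays it differed by −0.09.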

How the results depend on the processing

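Of the 36 member differences at 2-fold, each kept its sign under 7 alternatives (252 of 252 values), and 235 of 252 stayed at 2-fold. The filter on all 4 arrays, kept outlier spots and series matrix values left the member values unchanged or nearly so. Agreement under those settings is therefore no support. Losses were under normexp (24 of 36 stayed) and the mean of probes (31 of 36). No scaling moved the median of all genes by more than 0.07. With normexp, members at least 2-fold higher numbered 2 for challenge in wild type and 1 for genotype without challenge, those lower numbered 0 for challenge in knockout-labelled cells and 0 for genotype without challenge, and the mature median for challenge in knockout-labelled cells was 0.95. With the mean of probes, 0 members were lower for challenge in knockout-labelled cells and 0 for genotype under challenge. With the secondary granule genes counted as mature, the mature median in knockout-labelled cells was 0.61. With the other control array, chosen after seeing the data, 0 members were higher and 2 lower for challenge in wild type, and in knockout-labelled cells the primary granule median was 0.074 and Mpo reversed to 0.47. The cause of these moves was not tested. Of all genes, limma called 1 higher for challenge in the reported fit. It called 4 with normexp, 2 with quantile normalization, 5 with median scaling, 5 with the filter on all 4 arrays, 4 with series matrix values and 0 without a variance trend. For the genotype label it called 0, but 2 higher and 6 lower with normexp, 1 higher and 6 lower with the filter, and 2 lower with quantile normalization and 3 lower with median scaling. It called 0 members under each alternative run. No paired analysis was possible because each group has 1 array and the labels carry no replicate numbers, and leaving out an array would leave a group empty. Signal over background limits the dim genes, Trem3, Mpo, Prtn3 and Ctsg among them.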
